A study of Mus musculus with 4 samples.

Results

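The transcripts of 6 chemokine ligand genes, Ccl2, Ccl3, Ccl4, Ccl6, Ccl9 and Cxcl2, were examined in single-cell RNA sequencing (scRNAseq) of bone marrow classical monocytes. They were taken by symbol from the 27998 genes measured, and the list had been drawn up with the old against young values of these genes in view, so those values are given below as a description, without a test. Old and young males and old and young females made up 4 groups of 5 mice, all C57BL/6 and wild type (WT). Young males were 14 weeks old, old males 27 months, young females 15 weeks and old females 26.5 months. Cells from the marrow of a mouse were stained with a hashtag antibody specific to it, mice of one sex were pooled, and cells with the phenotype Ly6G-CD11b+CD115+Ly6Chi were sorted from the pool. Each sex was a separate experiment with its own library, so sex and experiment cannot be told apart, and levels of males and females are not compared. The labels name no treatment of any group.

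Chemokines are small secreted proteins that bind G protein-coupled receptors on leukocytes and direct their movement. Ccl2 acts through Ccr2, the receptor that classical monocytes use to leave the marrow. Ccl3 acts on Ccr1, Ccl6 and Ccl9 are rodent ligands linked to Ccr1, and Cxcl2 attracts neutrophils through Cxcr2. In myeloid cells Ccl3, Ccl4 and Cxcl2 are known as rapidly induced genes under NF-kB and AP-1, whereas Ccl6 and Ccl9 are made by resting cells.

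Of the 6 genes, 5 lie on chromosome 11 in the GENCODE annotation of GRCm38, the assembly also called mm10. Ccl2 (ENSMUSG00000035385) lies at chr11:82035571-82037453 on the plus strand, Ccl9 (ENSMUSG00000019122) at chr11:83572919-83578636 on the minus strand and Ccl6 (ENSMUSG00000018927) at chr11:83587882-83593087 on the minus strand. Ccl3 (ENSMUSG00000000982) lies at chr11:83647844-83649355 on the minus strand and Ccl4 (ENSMUSG00000018930) at chr11:83662584-83664683 on the plus strand. Ccl9 and Ccl6 are thus 9.245 kb apart, Ccl6 and Ccl3 54.756 kb apart, and Ccl3 and Ccl4 13.228 kb apart. Cxcl2 (ENSMUSG00000058427) lies at chr5:90903871-90905938 on the plus strand.

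Promoters were matched in RefSeq (GRCm38.p6) for 4 of the 6 genes, and the 250 bases before the start site are shown for the 3 of these on chromosome 11, Ccl3, Ccl6 and Ccl9. They cover chr11:83649379-83649628, chr11:83593088-83593337 and chr11:83578637-83578886 and are read on the minus strand, with motif matches in capitals.
Ccl3: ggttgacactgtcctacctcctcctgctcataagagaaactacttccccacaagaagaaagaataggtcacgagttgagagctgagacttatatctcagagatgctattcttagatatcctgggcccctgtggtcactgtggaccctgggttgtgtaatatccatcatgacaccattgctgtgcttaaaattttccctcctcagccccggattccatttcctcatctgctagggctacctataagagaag
Ccl6: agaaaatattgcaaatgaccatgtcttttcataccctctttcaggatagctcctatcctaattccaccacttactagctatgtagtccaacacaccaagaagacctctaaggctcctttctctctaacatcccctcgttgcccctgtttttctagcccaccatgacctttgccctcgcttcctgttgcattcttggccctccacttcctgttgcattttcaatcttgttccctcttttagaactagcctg
Ccl9: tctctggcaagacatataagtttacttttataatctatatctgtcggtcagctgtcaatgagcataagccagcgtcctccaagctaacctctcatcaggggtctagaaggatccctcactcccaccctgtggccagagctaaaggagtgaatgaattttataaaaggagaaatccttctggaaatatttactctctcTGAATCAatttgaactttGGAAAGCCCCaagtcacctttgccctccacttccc
AP-1 (TGANTCA), the NF-kB motif, PU.1 (GAGGAAG) and C/EBP (TTGCNNAA) were searched on both strands from 250 bases before to 50 bases after each start. Ccl9 held 1 AP-1 match starting 53 bases before the start site and 1 NF-kB match starting 35 bases before it, which do not overlap. Among 32817 promoters of the same length, 7.81% held the AP-1 letters and 8.46% the NF-kB motif, 13.6% held PU.1 and 10.8% C/EBP. No match to any of these motifs was present in the Ccl3 or Ccl6 window, which says only that these letters are not in it. The Cxcl2 window held 2 NF-kB matches, which overlap on opposite strands, and 1 PU.1 match.

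After assignment to mice, 1227 male cells (526 old, 701 young) and 6641 female cells (3009 old, 3632 young) were used, and no barcode was shared by the male and female data. Per mouse the summed depth was 330586 to 1108320 unique molecular identifiers (UMIs) in 49 to 206 cells in males and 2827638 to 18186954 UMIs in 259 to 1592 cells in females. Old mice had more UMIs per cell, with medians per mouse of 4489.5 to 8844 (old males), 3805.5 to 4455.5 (young males), 9699.5 to 13033 (old females) and 7978 to 8990 (young females). Detection is therefore also given after thinning to 2000 UMIs each cell that reached this depth, 1169 of 1227 male and 6637 of 6641 female cells. Cells below this depth are left out of thinned values and of classes of cells drawn after thinning. Most sorted cells carried monocyte markers, as 97.6% of male and 99.9% of female cells had at least 3 (Csf1r, Ly6c2, Ccr2 and others). By the same rule 82 male and 1112 female cells were marked for neutrophils. A cell could carry both marks, and neutrophil-marked cells were kept in all comparisons. The summed monocyte markers (9 genes in the files, none at 0) were lower in every old male (17126 to 34133 CPM, UMIs scaled to the same total in every mouse) than in every young male (34842 to 37676), and overlapped in females (26403 to 32337 old, 30537 to 32215 young). The summed neutrophil markers (10 genes, none at 0) ran from 299.6 to 8120 CPM in old and 268 to 6076 in young males, with medians of 3048 and 307, and from 248 to 960 in old and 265 to 2756 in young females.

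The 6 ligands differed widely in abundance. Because each UMI counts a molecule by its 3′ end, levels of different genes were compared within mice as log2(CPM + 1), by a two-sided exact sign-flip permutation test (smallest possible p 0.00195), adjusted over the 10 neighbouring pairs of both sexes. In females Ccl6 came first, above Ccl9, which was above Ccl3, and Ccl2 was above Ccl4, which was above Cxcl2, each step being in the same direction in 10 of 10 mice (exact permutation test, adjusted p = 0.00391 for each). Ccl3 and Ccl2 were neighbours that did not differ beyond their spread over old and young females together (adjusted exact p = 0.0708, Ccl3 higher in 6 of 10 mice). The 2 ages were not alike, since Ccl3 was above Ccl2 in every young female. Means of Ccl3 and Ccl2 were 31.5 and 10.9 CPM in young and 11.02 and 12.7 CPM in old females. In males Ccl9 and Ccl6 did not differ beyond their spread (adjusted exact p = 0.885), both stood above Ccl3 (0.00391 for Ccl6 against Ccl3 in the exact permutation test), and Ccl2 was above Ccl4 (adjusted exact p = 0.0163, 9 of 10 mice). The male pairs Ccl3 and Ccl2 (adjusted exact p = 0.0614) and Ccl4 and Cxcl2 (adjusted exact p = 0.130) did not pass.

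**Figure D1:**
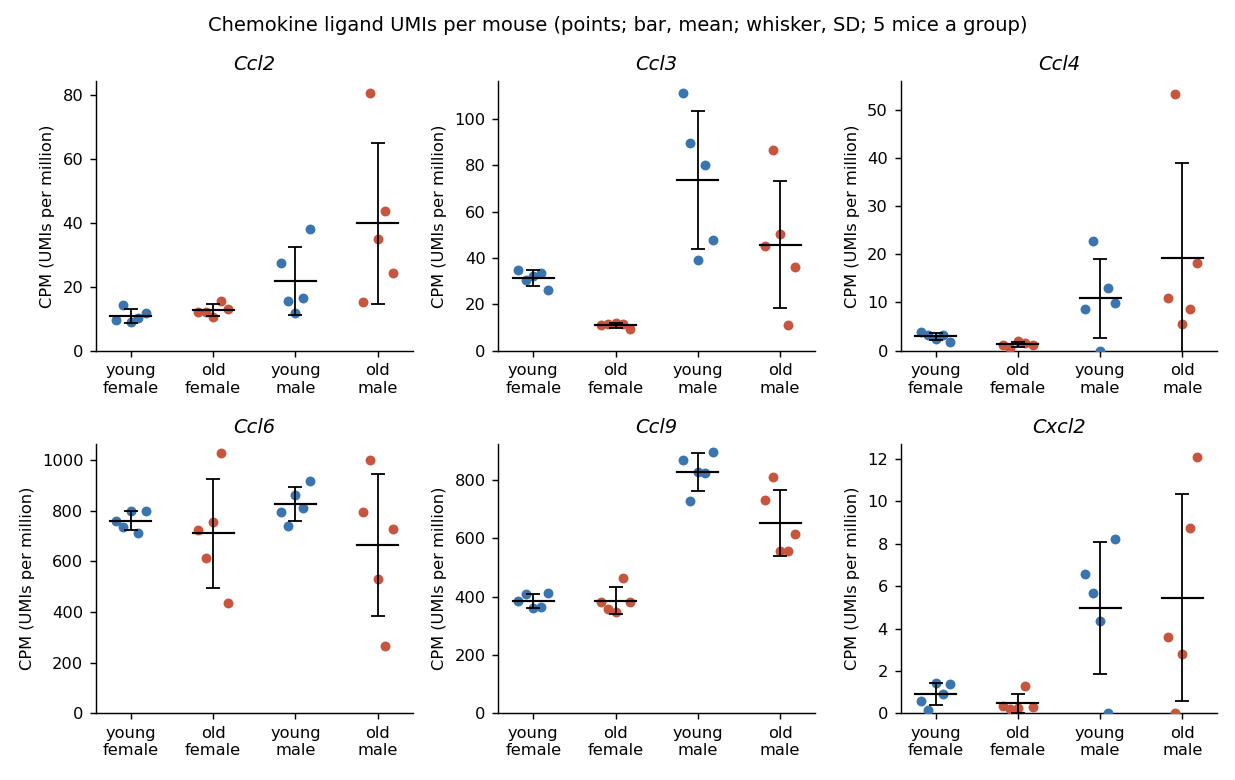
Level of each ligand in CPM for each mouse, by sex and age, with group mean and SD over 5 mice. The old male Ccl4 whisker, which would run below 0, stops at the axis. The old and young points are apart for Ccl3 in females and overlap in the other panels.

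Ccl3, also known as MIP-1α, was the only ligand whose old and young females did not overlap in CPM. In old females its level was 10.97, 11.6, 11.8, 11.6 and 9.22 CPM in mice 1 to 5, and in young females 34.8, 30.7, 32.2, 33.5 and 26.1 CPM. Every young female was above every old female, with group means of 31.5 ± 3.38 and 11.02 ± 1.05 CPM (SD, n = 5 mice each), from 1309 and 435 UMIs. Among all 10074 genes fitted in females, every old mouse was below every young mouse for 2.91% and above for 2.83%, and Ccl3 had the 5th lowest log2 fold change (−1.49 ± 0.09, standard error of the edgeR fit).

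In males the Ccl3 level was 45.1, 86.7, 50.3, 10.9 and 36.3 CPM in old mice 1 to 5 and 111, 89.6, 39.3, 80.2 and 47.7 CPM in young mice. The old mean was lower (45.9 ± 27.4 against 73.6 ± 29.9 CPM, SD, n = 5 each), but the groups overlapped, since old mouse 2 lay above 3 of the young mice and young mice 3 and 5 lay below old mouse 3. All old males were below all young males for 1.13% of the 5656 genes fitted. The male log2 fold change was −0.64 ± 0.33, on 160 old and 270 young UMIs, and leaving out 1 mouse moved it between −0.42 (without young mouse 1) and −0.98 (without old mouse 2). Whether the age difference of Ccl3 differed between the sexes was not tested, since the gene had been chosen on it.

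Fewer old cells carried any Ccl3 UMI. In females 10.9%, 11.9%, 9.89%, 10.1% and 9.73% of cells were positive in old mice and 23.1%, 18.3%, 19.7%, 21.4% and 18.6% in young mice, although old cells were deeper. After thinning, the shares were 2.30%, 1.90%, 2.61%, 2.60% and 2.24% in old against 9.31%, 5.22%, 6.56%, 7.91% and 5.13% in young females, again without overlap. For detection and UMIs per positive cell, the share of all genes whose groups do not overlap was not computed, so these values only describe Ccl3. At full depth positive cells also held fewer molecules, 1.27 to 1.49 UMIs on average in old and 1.60 to 1.85 in young females, whereas after thinning the groups overlapped (1 to 1.25 and 1.17 to 1.35). Of all thinned cells, those with 1, 2, and 3 or more Ccl3 UMIs made up 2.20%, 0.166% and 0.0665% of old and 5.76%, 1.18% and 0.193% of young female cells.

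In males the thinned share of Ccl3-positive cells was 7.07%, 5.56%, 6.45%, 4.26% and 0% in old mice and 12.3%, 10.5%, 5.80%, 9.40% and 6.72% in young mice. The groups overlapped, since young mice 3 and 5 lay below old mouse 1. No cell type was set apart as one that should lack Ccl3, and Ccl3 was not examined in neutrophil-marked cells alone. The 37 T or NK-marked cells of the female pool were Ccl3-positive in 24.3% (exact 95% binomial interval 11.8% to 41.2%, median 11595 UMIs), but 34 of them also had monocyte markers, and the remaining female cells were positive in 15.9% (15.0% to 16.8%, median 9565 UMIs). Such intervals cover counting error only.

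**Figure D2:**
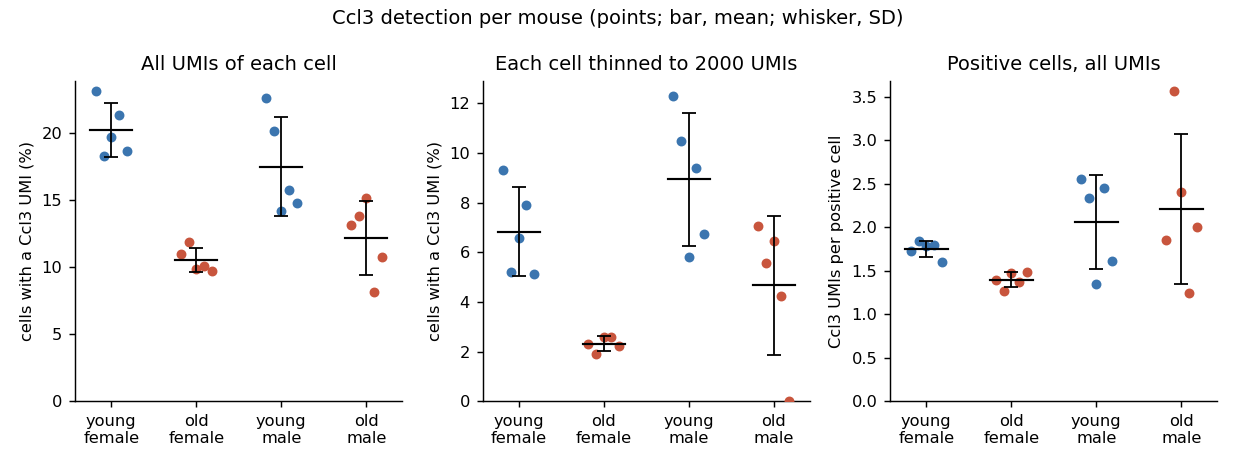
Percent of cells with at least 1 Ccl3 UMI in each mouse, at full depth and after thinning to 2000 UMIs, and mean Ccl3 UMIs per positive cell at full depth, by sex and age, with mean and SD over 5 mice. Cells below 2000 UMIs are left out of the thinned panel. In females the old mice lie between 1.90% and 2.61% after thinning and the young mice between 5.13% and 9.31%, whereas the male groups overlap.

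The old against young values of Ccl3 were also read within classes of cells, as a description, since the classes reuse the values on which the gene was chosen. Cells of each mouse were split into 3 classes by each of 8 gene scores and 6 surface antibodies, and the top and bottom classes gave 28 female classes that share cells. The old mean was lower in 28 of 28 classes and every old mouse was below every young mouse in 26 (1.81% of all tested genes over these classes), with young means 1.98 to 4.18 times the old. In the top class for mature Ly6C-high genes (Fn1, Chil3, Lyz2 and others) Ccl3 was 18.3 ± 3.37 CPM in old and 67.1 ± 15.7 CPM in young females (SD, n = 5 each), and in the bottom class 5.39 ± 2.01 and 13.9 ± 1.47 CPM. In the top class for immediate early genes it was 18.7 ± 3.21 in old and 52.3 ± 11.3 CPM in young females, and in the top class for CD11b antibody 14.8 ± 4.80 and 51.2 ± 18.1 CPM. The overlap occurred in the top class for primary granule genes (7.42 ± 2.5 and 14.7 ± 4.82 CPM) and in the top class for MHC-II antibody (11.5 ± 3.87 and 27.0 ± 6.88 CPM). In males the old mean was lower in 16 of 16 classes, the groups being apart in 1 (0.906% of all tested genes), the bottom class for MHC-II genes (27.4 ± 12.5 and 74.4 ± 26.0 CPM).

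**Figure D3:**
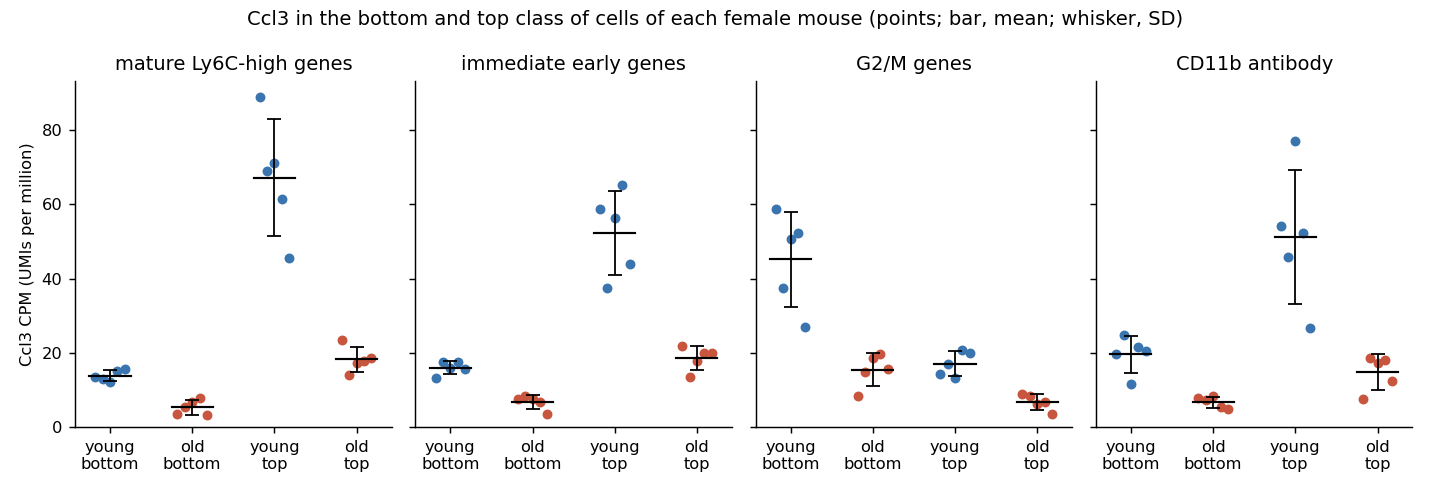
Ccl3 in CPM in the bottom and top class of cells of each female mouse for mature Ly6C-high, immediate early and G2/M genes and CD11b antibody, with mean and SD over 5 old and 5 young mice. The young mean exceeds the old in every class shown, for example 67.1 against 18.3 CPM in the top class for mature Ly6C-high genes.

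Ccl4, or MIP-1β, was a rare transcript with 182 female and 99 male UMIs in all. Its level was 1.10, 0.621, 2.02, 1.64 and 1.11 CPM in old females and 3.92, 3.28, 2.48, 3.24 and 1.87 CPM in young females. The young values were higher except that young female 5 lay below old female 3, and the log2 fold change was −1.05 ± 0.27, the 13th lowest of 10074. Ccl4 passed the filter on low counts in females by its level in the young mice (57 UMIs in old, 125 in young). Its rank is thus only a description. Thinned detection was 0% to 0.761% in old and 0.772% to 1.21% in young females, a measure for which the share over all genes was not computed. Its old mean was lower in 28 of 28 female classes, with every old mouse below every young mouse in 4 (1.81% of all tested genes over these classes). In males Ccl4 was at 10.8, 53.2, 5.59, 8.71 and 18.1 CPM in old mice and 8.74, 22.8, 0, 13.1 and 9.88 CPM in young mice, without a common direction, and it did not pass the filter on low counts. The 0 of young male 3 allows up to 3 UMIs, or 4.37 CPM.

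Cells of another type held a large share of male Ccl3 and Ccl4. Only 15 male cells (9 old, 6 young) had at least 3 of 10 basophil markers, with a median of 1499 UMIs, and only 1 of them also had 3 monocyte markers. Ccl3 was found in 15 of the 15 and Ccl4 in 11, and these cells held 15.3% of male Ccl3 UMIs, 35.4% of Ccl4, 4.54% of Ccl6 and 3.18% of Ccl9. No UMI of Ccl2 or Cxcl2 was found in these 15 cells, which bounds only the share of cells with a UMI at this low depth (exact 95% binomial upper limit 21.8%), not the share expressing the gene. Cells marked for basophils, T or NK cells or B cells held 24.4% of old and 10.0% of young male Ccl3 UMIs. Without them the male log2 fold change of Ccl3 was −0.90. The summed basophil markers (10 genes, none at 0) were 43.6 to 609 CPM in old and 34.6 to 552 in young males, with medians of 181 and 45.9, against 5.19 to 7.63 in old and 6.43 to 12.0 in young females, where 4 of the 10 were at 0 and the 2 marked cells had no Ccl3 or Ccl4.

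Ccl2, the main ligand of Ccr2, differed little by age in females and was higher on average in old males. Female levels were 12.1, 12.2, 10.4, 15.7 and 12.9 CPM in old and 9.65, 14.2, 8.84, 10.2 and 11.7 CPM in young mice, which overlapped (log2 fold change 0.22 ± 0.14). With every female barcode given to its leading hashtag, the value was −0.021. Male levels were 15.3, 80.6, 34.9, 43.6 and 24.2 CPM in old and 27.3, 15.7, 11.6, 16.4 and 37.9 CPM in young mice, with a log2 fold change of 0.82 ± 0.40. Old male 2 stood highest, and without it the male value was 0.31. Thinned detection of Ccl2 was 2.53% to 13% in old and 2.17% to 5.88% in young males.

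Ccl6 and Ccl9 were the abundant pair, found in most cells. Ccl6 was at 723, 613, 754, 1027 and 436 CPM in old and 760, 738, 798, 713 and 798 CPM in young females, so that the young mice fell inside the spread of the old (log2 fold change −0.09 ± 0.15, and 0.044 without old female 5). In males it was at 794, 1002, 531, 266 and 729 CPM in old and 797, 741, 863, 812 and 917 CPM in young mice (−0.31 ± 0.22). The spread was thus wider among old mice in both sexes, with an SD of 216 against 37.3 CPM in females and 279 against 66.9 CPM in males, a difference that was not tested.

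Ccl9 was at 383, 357, 348, 464 and 384 CPM in old and 385, 408, 360, 363 and 414 CPM in young females, with a log2 fold change of 0.01 ± 0.07, which took either sign when 1 mouse was left out. In males it was at 733, 811, 557, 556 and 617 CPM in old and 870, 727, 827, 823 and 897 CPM in young mice. Only young male 2 lay among the old values, and the log2 fold change was −0.34 ± 0.10. The male old mean of Ccl9 was lower in 16 of 16 classes, with young means 1.05 to 1.47 times the old. Male monocyte markers were lower in old mice as well, as given above, and their part in these values was not tested.

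Cxcl2, a neutrophil attractant, was close to the limit of detection. It had 59 UMIs in 29 female cells and 32 UMIs in 14 male cells. Female levels were 0.207 to 1.27 CPM in old and 0.182 to 1.41 CPM in young mice, and male levels 0 to 12.1 and 0 to 8.23 CPM, with overlap in both sexes. It passed the filter on low counts in neither sex, so that 4 of the 6 ligands passed in males and 5 in females.

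Within mice, Ccl6 and Ccl9 in both sexes and Ccl2 and Ccl3 in females were higher in cells with more transcripts of mature monocytes and lower in cells with more transcripts of early or dividing cells. For this the cells of each mouse were ranked by a gene score after thinning and split into 3 classes, UMIs of the full cells were summed per mouse for the top and the bottom class, and edgeR was fitted over all genes with the mouse as a block (10 mice of each sex, 2 classes each). None of the 6 ligands was in a score. Cells marked for basophils, T or NK cells or B cells were left out, whereas neutrophil-marked cells were kept. Of 32 female contrasts, 8 scores for Ccl2, Ccl3, Ccl6 and Ccl9, 32 passed an adjusted p of 0.05. In males 17 of 19 passed, all 16 of Ccl6 and Ccl9 and 1 of 3 of Ccl3, and Ccl2 had too few UMIs to be tested. Ccl4 and Cxcl2 were tested in neither sex. These splits moved much of the transcriptome, since 23.8% to 39.5% of all genes passed in one direction in females and 13.5% to 30.3% in males, so passing alone does not set the ligands apart.

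The largest contrast of a ligand was that of Ccl6 with the mature Ly6C-high score. The study's cluster tables had been read beforehand, and the gene list of a cluster there holds Ccl6. Although Ccl6 was left out of the score, its rise with this score was thus not an independent result. Ccl6 was at 1644 ± 262 CPM in the top and 250 ± 72.0 CPM in the bottom class in females (SD, n = 10 mice), higher in 10 of 10 (log2 2.69 ± 0.07, edgeR adjusted p = 2.1e-19, rank 73 of 8825 genes, of which 39.1% were called higher and 38.3% lower). In males it was at 1528 ± 427 and 210 ± 92.8 CPM (2.91 ± 0.12, edgeR adjusted p = 8.4e-13, rank 8 of 2584, 30% called higher). Ccl9 rose by 1.80 ± 0.05 in females and 1.49 ± 0.08 in males on the log2 scale. Ccl3 and Ccl2 rose in females by 1.95 ± 0.13 (42.7 ± 27.9 against 9.65 ± 4.79 CPM) and 1.54 ± 0.11 (22.9 ± 4.22 against 7.32 ± 2.15 CPM), each in 10 of 10 mice. Neither passed the filter on low counts for this score in males, where Ccl3 was higher in 7 and Ccl2 in 8 of 10 mice.

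The opposite held for the scores of early and dividing cells. With primary granule genes (Mpo, Elane, Prtn3 and others, which mark progenitors) Ccl6 fell by 2.60 ± 0.05 in females and 2.14 ± 0.13 in males on the log2 scale, Ccl9 by 1.94 ± 0.05 and 1.39 ± 0.07, and Ccl3 by 1.31 ± 0.13 and 0.88 ± 0.23 (edgeR adjusted p = 8e-10 and 0.0024). The male Ccl3 call was lost with DESeq2, with hashtag singlets and without young male 1. Ccl2 was 6.16 ± 1.78 CPM in the top and 16.2 ± 3.07 CPM in the bottom class of females (log2 −1.35 ± 0.12). With G2/M genes Ccl6 fell by 1.94 ± 0.05 in females and 1.95 ± 0.32 in males, and Ccl3 in females by 1.37 ± 0.13. Of all genes 38.3% were called higher in females with granule genes. Background shares called lower were 39.5% and 37.6% of genes in females and 26.3% and 22.5% in males for granule and G2/M genes. Ccl4, untested, was lower in the top class in 10 of 10 females for both scores (means of 0.818 against 3.26 and 1.3 against 3.40 CPM).

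Cells with more interferon-stimulated transcripts (Ifit1, Isg15, Rsad2 and others) were those in which Ccl2 rose most. In females Ccl2 was at 24.7 ± 5.97 CPM in the top and 7.74 ± 2.03 CPM in the bottom class (log2 1.82 ± 0.13, edgeR adjusted p = 2.8e-12, rank 65 of 8718 genes, 32.6% called higher and 31.2% lower). Ccl6, Ccl9 and Ccl3 rose by 1.37, 1.09 and 0.96 on the same scale. In males Ccl6 rose by 1.08 ± 0.09 and Ccl9 by 0.72 ± 0.09, and Ccl2, which did not pass the filter there, was higher in 9 of 10 mice (58.8 ± 49.99 against 21.5 ± 9.24 CPM). For genes of the Ly6C-low transition (Apoe, Nr4a1, Cx3cr1 and others) Ccl6 rose by 1.86 ± 0.08 in females and 2.05 ± 0.09 in males. Ccl4 was higher in the top class in 10 of 10 females for the transition score (4.13 against 1.11 CPM), the mature score (4.03 against 0.867 CPM) and the immediate early score (4.29 against 0.821 CPM).

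**Figure D4:**
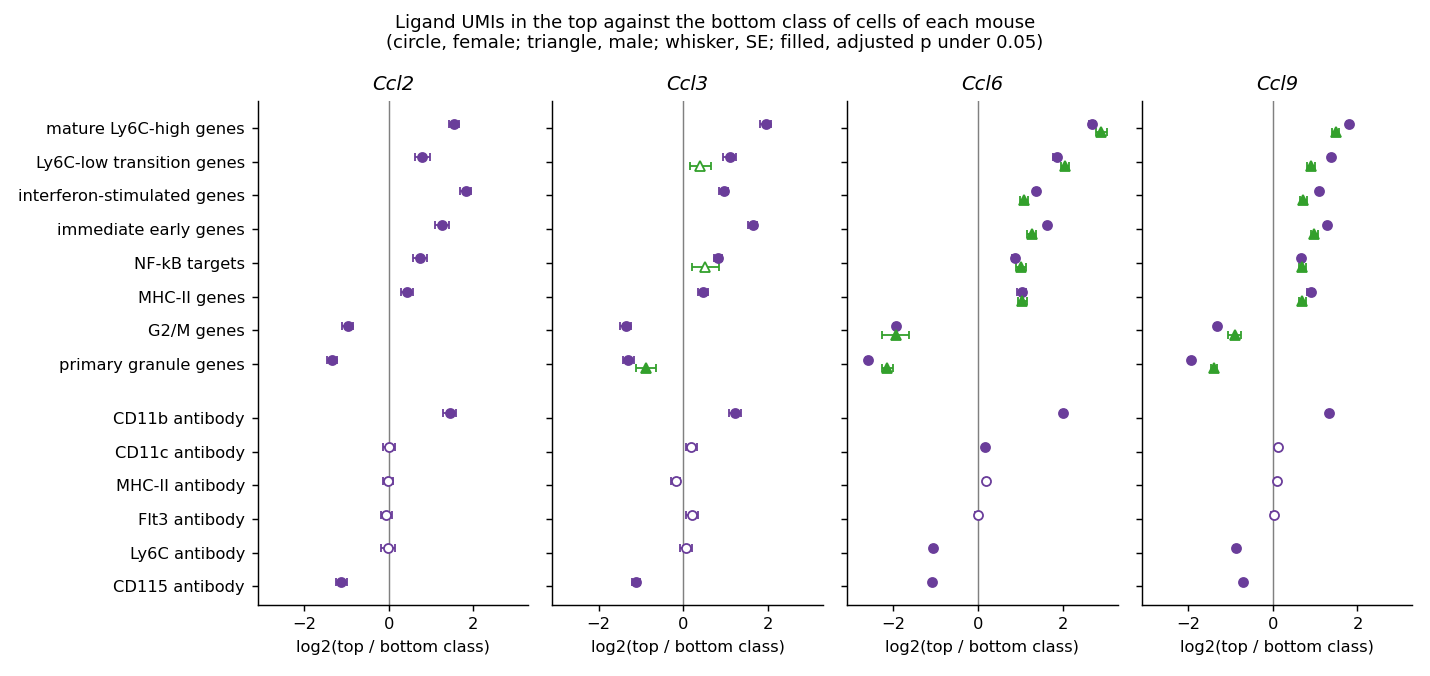
Log2 ratio of the top over the bottom class of cells, with standard error, for Ccl2, Ccl3, Ccl6 and Ccl9 across the gene scores in each sex and the surface antibodies in females. Ccl6 spans the widest range, from −2.60 for primary granule genes to 2.69 for mature Ly6C-high genes in females.

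The scores for immediate early genes, NF-kB targets and MHC-II genes gave positive contrasts, most of which depended on how depth was handled. After thinning, Ccl3 rose in females by 1.64 ± 0.11 with immediate early genes and 0.81 ± 0.10 with NF-kB targets, and Ccl6 by 1.63 ± 0.05 and 0.87 ± 0.06, where 36% and 26.2% of genes were called higher. In males Ccl6 rose by 1.27 ± 0.11 and 1.01 ± 0.11. With classes drawn from the full counts instead, the NF-kB contrast of females turned to −0.88 for Ccl3, −0.91 for Ccl6 and −0.67 for Ccl9, and the MHC-II contrast from 0.46 to −1.0 for Ccl3 and from 1.03 to −0.37 for Ccl6. In the thinned classes, top cells had 0.743 times the UMIs of bottom cells for NF-kB targets and 0.721 times for MHC-II genes (median over 10 female mice), and in the full-count classes 1.78 and 1.48 times. Of the 32 female calls 20 were also made, in the same direction, with full-count classes, and of the 17 male calls 11. Those not made included Ccl2 and Ccl3 with the Ly6C-low transition and Ccl2 and Ccl6 with immediate early genes in females. Ccl3 and Ccl9 with immediate early genes kept their direction and call in females, whereas in males Ccl6 and Ccl9 lost theirs. Ccl6 and Ccl9 with the Ly6C-low transition kept theirs in both sexes. The contrasts of Ccl6 and Ccl9 with mature, interferon, granule and G2/M genes kept their direction and call in both sexes under full-count classes, and those of Ccl3 and Ccl2 in females. For these 4 scores depth differed in the same direction under both rules. The UMIs of top over bottom cells in females were 0.415 times (thinned) and 0.661 times (full) for mature, 0.611 and 0.828 for interferon, 1.88 and 2.41 for granule and 2.02 and 2.47 for G2/M genes, and their part in these contrasts was not tested.

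The female cells also carried 6 surface antibodies, and 11 of 24 contrasts of Ccl2, Ccl3, Ccl6 and Ccl9 passed. Cells were ranked by the centred log ratio of an antibody over the 6 antibodies of the cell. More of one antibody thus lowers the value of the others, and the 6 contrasts are not independent. All 11 calls were also made with raw antibody counts. In the top class for CD11b, the integrin that rises with maturation and was part of the sort gate, Ccl6 was at 1298 ± 238 CPM against 328 ± 100 CPM in the bottom class (log2 2.01 ± 0.06, edgeR adjusted p = 1e-18, higher in 10 of 10 mice). Ccl2 rose by 1.44 ± 0.15, Ccl9 by 1.33 ± 0.05 and Ccl3 by 1.22 ± 0.14, with 36.1% of genes called higher. The top class for CD115, the receptor Csf1r, had less of all 4 ligands, with log2 ratios of −1.13 ± 0.09 for Ccl3, −1.12 ± 0.13 for Ccl2, −1.08 ± 0.04 for Ccl6 and −0.70 ± 0.03 for Ccl9, each lower in 10 of 10 mice (28.7% of genes called lower). UMIs per cell moved with both antibodies, at 0.570 times in the top against the bottom class for CD11b and 1.35 times for CD115, and their part in the result was not tested.

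With Ly6C protein the contrasts of Ccl6 and Ccl9 passed and those of Ccl2 and Ccl3 did not. In the top class Ccl6 was at 519 ± 123 against 1056 ± 222 CPM (log2 −1.06 ± 0.04) and Ccl9 at 288 ± 37.6 against 514 ± 50.5 CPM (−0.88 ± 0.05), both lower in 10 of 10 mice, where 22.4% of genes were called lower. Ccl2 (−0.02 ± 0.17, edgeR adjusted p = 0.95) and Ccl3 (0.06 ± 0.14, edgeR adjusted p = 0.76) were not called, and the difference between the pairs was not tested. With raw antibody counts Ccl3 passed at −0.36 (edgeR adjusted p = 0.033). Top cells had 1.46 times the UMIs of bottom cells for Ly6C, and the part of depth was not tested. CD11c gave 1 call, Ccl6 at 0.17 ± 0.04 (edgeR adjusted p = 0.043, 0.391% of genes called higher), which was lost in 7 of the 10 fits without 1 mouse. No ligand passed for Flt3 or MHC-II protein, for which 0.0461% and 3.12% of genes were called higher. This depended on how the antibodies were scaled. Raw antibody counts added calls of Ccl6 and Ccl9 for Flt3, of Ccl2, Ccl6 and Ccl9 for MHC-II, and of Ccl9 for CD11c. Ccl6 also passed for MHC-II with no filter on low counts and without young female 5.

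Ligands were also compared between cells that did and did not hold one another. For Ccl2, Ccl3 and Ccl4, cells with a UMI after thinning were set against those without, and for Ccl6 and Ccl9, which most cells held, cells above their mouse's median count against the rest. In females 13 of 16 contrasts between members passed, all upward. Many pairs of ligands were split both ways, here and in males, so these contrasts are not independent. Ccl6-high cells had more Ccl9 (627 ± 51.9 against 287 ± 38.5 CPM, log2 1.14 ± 0.03, edgeR adjusted p = 1.6e-22), Ccl3 (0.97 ± 0.09) and Ccl2 (0.82 ± 0.10), each in 10 of 10 mice, with 37.1% of genes called higher. Ccl9-high cells had more Ccl6, Ccl3 and Ccl2 (1.07, 0.94 and 0.58, 29.5% called higher). The mean UMIs per cell were 0.584 times as high in Ccl6-high and 0.682 times as high in Ccl9-high cells as in the rest (medians over mice). For female Ccl2-, Ccl3- and Ccl4-positive cells the ratios were 0.856, 0.765 and 0.620. In males they were 0.619 for Ccl6-high, 0.749 for Ccl9-high, 0.928 for Ccl2-positive and 0.976 for Ccl3-positive cells. The part of depth in the contrasts between members was not tested.

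Ccl3-positive female cells had more Ccl2 (16.4 ± 7.48 against 11.6 ± 2.23 CPM, log2 0.78 ± 0.24, edgeR adjusted p = 0.022, higher in 7 of 10 mice), Ccl6 (0.62 ± 0.07) and Ccl9 (0.44 ± 0.09), with 5.24% of genes called higher. The Ccl2 call was lost without young female 2 (adjusted p = 0.052) and without young female 4 (adjusted p = 0.46) in the edgeR fit, and without the mouse as a block (adjusted p = 0.051). Ccl4-positive cells, enough in 4 mice only (31 cells), had more Ccl3 (139 ± 147 against 25.8 ± 10.1 CPM, 1.94 ± 0.40, edgeR adjusted p = 0.0002, 0.481% of genes called higher) and Ccl6 (0.65 ± 0.15). Of the 43 thinned cells with Ccl4 in all females, 6 also held Ccl3, where the product of the genes' shares of cells gives 2.14. Without young female 1 the Ccl3 contrast of Ccl4-positive cells was 1.15 (edgeR adjusted p = 0.53), and without the mouse as a block it was 2.00 (edgeR adjusted p = 0.12).

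In males 5 of 10 contrasts passed. Ccl2-positive cells, in 7 mice, had Ccl3 at 239 ± 154 against 49.9 ± 25.3 CPM, higher in 7 of 7, the first of 3630 genes (log2 2.24 ± 0.30, edgeR adjusted p = 2e-07, 0.193% called higher). Of the 58 thinned cells with Ccl2, 11 also held Ccl3, where the product of the genes' shares of cells gives 4.33. This call held without each of the 7 mice in turn (log2 1.97 to 2.47) and was lost when only hashtag singlets were used (log2 2.18, edgeR adjusted p = 0.20). In females the Ccl3 contrast of Ccl2-positive cells, in 9 mice, did not pass in the main fit. It was called there by leading hashtag and with full-count classes. Of 161 thinned female cells with Ccl2, 12 also held Ccl3, where the product of the shares gives 8.03. In the reverse split, male Ccl3-positive cells had Ccl2 at 74.1 ± 54.8 against 26.5 ± 23.1 CPM (1.55 ± 0.39, edgeR adjusted p = 0.19), and 0% of genes were called. Male Ccl2-positive cells also had more Ccl6 (log2 0.58 ± 0.14, edgeR adjusted p = 0.019). That call was lost with DESeq2, with hashtag singlets, with no filter, without the mouse as a block and with full-count classes. It was lost as well without old male 3, young male 1 or young male 5. Ccl6 and Ccl9 were higher in each other's high cells (0.90 ± 0.07 and 1.01 ± 0.07, 23% and 18.5% of genes called higher). Ccl9-high cells also had more Ccl3 (0.52 ± 0.20, edgeR adjusted p = 0.045, higher in 8 of 10 mice), a call lost in 8 of the 10 fits without 1 mouse and without the mouse as a block (edgeR adjusted p = 0.37).

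Beyond the ligands, the genes whose cells most resembled those of each ligand were ranked by the mean male and female log2 ratio among genes called higher in both sexes. For Ccl6, 813 genes were called in both, led by Apoe (2.52 male, 2.49 female), a lipid carrier, then Sirpb1c, Pla2g7, Sirpb1b and Hpgd. For Ccl9, 577 genes were called, led by Hpgd (1.29 and 1.39), an enzyme that degrades prostaglandins, then Rtp4, Slfn1, Sirpb1c and Ms4a8a, and Slfn1 is also in the mature score. For Ccl2, 5 genes were called in both, Ms4a8a (1.3 and 0.45), Klra2, Ccl6, Ctsc and Lyz2, where the male call of Ccl6 was lost under several alternatives, as given above. For Ccl3 no gene was called in males. In females alone 441 were called, led by Cxcl10 (1.40 ± 0.42), an interferon-induced chemokine, then Gh, E030030I06Rik, Smpdl3b and Bmf. For Ccl4, in 4 females, 44 genes were called, led by Lyz1 (3.76 ± 0.40), Ace (2.74 ± 0.70), Tppp3, Nr4a1 (2.47 ± 0.49) and Cdc42ep2, of which Ace and Nr4a1 are genes of the Ly6C-low transition.

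The other genes of the pathway were tested by age with edgeR over all genes. In females 345 of 10074 genes passed an adjusted p of 0.05 (3.42%, 2.03% higher and 1.4% lower in old). In males 0 of 5656 passed (618 at an unadjusted p under 0.05, and 23 with DESeq2). Among 32 other chemokine ligands, 5 had enough UMIs in females and 0 of them passed (1 at an unadjusted p under 0.05). Their log2 fold changes were 1.61 ± 0.76 for Cxcl9 (edgeR adjusted p = 0.31), 0.97 ± 0.26 for Cxcl16 (edgeR adjusted p = 0.057), 0.25 for Ccl5, 0.00 for Cxcl10 and −0.13 for Ccl25. In males none had enough UMIs.

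The receptors Ccr1 and Ccr2 were tested by age as well. Ccr1, which binds Ccl3, Ccl6 and Ccl9, was at 75.1 ± 34.8 and 55.5 ± 4.41 CPM in old and young females (edgeR adjusted p = 0.31). In old and young males Ccr1 was at 40.2 ± 18.7 and 46.2 ± 6.29 CPM (edgeR adjusted p = 0.90). Ccr2 was at 909 ± 95.5 and 936 ± 30.7 CPM in females and 796 ± 122 and 858 ± 58.6 CPM in males (log2 −0.04 and −0.11), and it passed in neither sex.

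Of 25 immediate early genes, among them the AP-1 subunits Fos and Jun, 21 were tested in females, 10 fell and 1 rose in old mice, with a median log2 fold change of −0.38 against −0.0012 over all genes. Jun was at 125 ± 15.4 CPM in old and 241 ± 21.8 CPM in young females (log2 −0.94 ± 0.08, edgeR adjusted p = 1.7e-05). Fosb fell by 0.99 ± 0.19, Dusp1 by 0.61 ± 0.13, Jund by 0.56 ± 0.09 and Fos by 0.53 ± 0.09 on the log2 scale. Dusp1 lost its call without young female 2 or 5 and when cells were thinned. Socs3, a feedback inhibitor of cytokine signalling, rose from 2.81 ± 0.46 to 14.6 ± 4.58 CPM (log2 2.32 ± 0.23, edgeR adjusted p = 5.5e-05) and had too few UMIs to be tested when cells were thinned. In males 16 of the 17 tested were negative, 11 had an unadjusted p under 0.05 and none passed after adjustment, with a median of −0.34.

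Of 25 NF-kB targets, 22 were tested in females, 4 rose and none fell, with a median log2 fold change of 0.12. Ier3 rose from 7.88 ± 1.46 to 16.8 ± 2.78 CPM (log2 1.12 ± 0.14, edgeR adjusted p = 0.00029), Nfkbia, the inhibitor of NF-kB, by 0.76 ± 0.10, Clec4e by 0.66 ± 0.12 and Il1b by 1.24 ± 0.30. The Il1b call (edgeR adjusted p = 0.032) was lost in 7 of the 10 fits without 1 mouse. In males 12 were tested and none passed, with a median of 0.09. Ccl3 and Ccl4 were lower in old females, in which 4 NF-kB targets rose and 10 immediate early genes fell and 1 rose. Any link of these genes to the ligands' level was not tested.

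**Figure D5:**
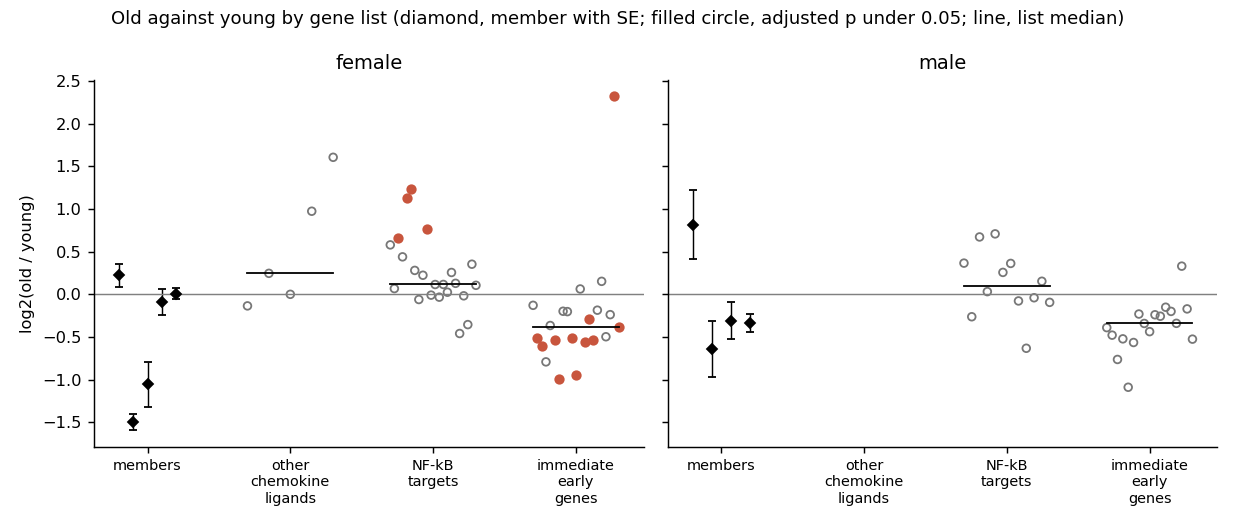
Log2 fold change of old over young for each tested gene of 3 lists in each sex (circles, filled where past an edgeR adjusted p of 0.05, with a line at the list median) and for the ligands (diamonds with SE, from left Ccl2, Ccl3, Ccl4 in females alone, Ccl6 and Ccl9). Among female immediate early genes 10 lie below 0 and 1 above among those marked, and among female NF-kB targets 4 lie above.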

How the data were processed

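Single-cell 3′ libraries of FACS-sorted bone marrow classical monocytes were deposited as 1 count matrix per sex. Per the methods the authors aligned reads with STAR 2.5.1 to mm10 with Ensembl 84 annotation and counted UMIs with Cell Ranger 4.0.0, whereas the deposited counts carry headers naming software version 3.1.0 (female) and 7.0.0 (male). The deposited values are raw UMI counts per gene, hashtag or antibody and cell.

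Mice were told apart by the authors' hashtag table. All 1227 male barcodes were given to their leading hashtag, because they looked already demultiplexed. HTODemux (Seurat 5.3.0) called 401 of them doublets, in which the leading hashtag held a median of 95.1% of hashtag counts, and no male doublets were removed. Of 10433 female barcodes, 942 without a hashtag call and 2478 HTODemux doublets were removed. Only cells with over 200 genes and under 5% mitochondrial UMIs entered. Doublets within 1 mouse were not removed. UMIs were summed per mouse, or per mouse and class of cells, and fitted over all genes with edgeR 4.0.16 (TMM, filterByExpr, quasi-likelihood test, Benjamini-Hochberg adjustment, threshold 0.05) in R 4.3.3. The fits were tested on simulated data with 200 changed genes. By age, 29.0% of 1.5-fold changes were recovered in males and 80.0% in females, and 85.5% and 95.0% of 2-fold changes. Unchanged genes called numbered 7 in males and 12 in females at 1.5-fold, and 17 and 5 at 2-fold. Simulated counts were drawn independently for each gene and mouse, so recovery in the data can be lower. In the male data Fosb, at a log2 fold change of −1.09, was not called (edgeR adjusted p = 0.191). The male age fit can thus miss most changes of 1.5-fold. CPM are relative to all gene UMIs of the mouse or class. Within-mouse fits had the mouse as a block and left out 16 male and 41 female cells marked for basophils, T or NK cells or B cells. A mouse needed at least 5 cells in each class. Exact tests used SciPy 1.17.1. Replicates were mice, 5 in each group.

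The 6 ligands, the gene lists and the tests were chosen with earlier results of these data known, and the study's cluster tables had been read, from which Ccl6 was left out of the mature score. Genes named from the lists are those past the threshold by age, at most 6 a list by absolute log2 fold change. The few other ligands tested and the receptors Ccr1 and Ccr2 are given besides, and counts over the receptor list are not reported here. Genes most like a ligand are the 5 with the highest mean log2 ratio among those called in both sexes, in females alone where the male contrast could not be fitted. The Ccl3 list was taken from females alone after the male contrast had given none.

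Alternatives were DESeq2 1.42.0, no filter on low counts, the other rule for giving cells to mice (826 male singlets, 9898 female barcodes by leading hashtag), cells of other types kept or left out, thinned or full counts, raw antibody counts, no replicate block, and leaving out each mouse.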

Additional observations from a re-analysis of the deposited data

Results flagged for a closer look

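In 48 groups of 5 mice, the levels and thinned detection of the 6 ligands were searched for a mouse far from the other 4, by the gap to its neighbour over the group's range. Chance alone marks about 1 in 20 such groups, and 4 were marked. Ccl4 stood at 53.2 CPM in old male 2, where the other old males were at 5.59 to 18.1 CPM. Cxcl2 stood at 1.27 CPM in old female 4, against 0.207 to 0.366 CPM in the other old females. Ccl4 was found in 1.21% of the thinned cells of young female 1, against 0.772% to 0.879% in the other young females. Ccl9 was found in 66.9% of the thinned cells of young male 2, the lowest of the young males.

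In 120 comparisons of a within-mouse contrast between old and young mice or between males and females, no ligand moved one way in every mouse of one group and the opposite way in every mouse of the other. A difference in size alone could not meet this rule, so the absence of flags does not show that the groups were alike.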

How the results depend on the processing

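Recomputed under the alternatives, the main values and counts stayed within the spread between mice, or within 1.5 times the count, in 282 cases and moved further in 23. A log2 fold change by age can hardly move by more than that spread when 1 mouse is left out. For such cases the count therefore says little about stability. Within that spread Ccl6 in females turned to 0.044 without old female 5, Ccl9 in females to −0.063 without old female 4 and −0.064 by leading hashtag, and Ccl2 in males fell to 0.31 without old male 2. The causes were not tested unless named. With female barcodes given by leading hashtag, the log2 fold change of Ccl2 turned to −0.021 and 560 genes were called by age in place of 345. Thinning left 149, and removed Socs3, which then had too few UMIs, so that 0 immediate early genes were called higher. Leaving out 1 mouse gave 194 (without young female 2) to 522 (without old female 4) female calls. In males 0 calls became 23 with DESeq2, 95 with no filter and 0 to 39 without 1 mouse (39 without old male 1, 24 without old male 4).

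Leaving out 1 mouse moved the log2 fold change of Ccl3 between −1.56 and −1.44 in females and between −0.98 and −0.42 in males, Ccl4 in females between −1.29 and −0.93, Ccl2 between 0.11 and 0.32 in females and 0.31 and 1.15 in males, Ccl6 between −0.26 and 0.04 and between −0.51 and −0.11, and Ccl9 between −0.06 and 0.05 and between −0.44 and −0.28. It left 7 to 12 immediate early genes lower and 3 to 5 NF-kB targets higher in old females.

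Member contrasts with antibodies, 11 called, became 19 with no filter, 18 with raw antibody counts and 10 to 12 without 1 mouse. Male score contrasts, 17 called, became 30 with no filter, 11 with classes from full counts and 16 to 20 without 1 mouse, and the 32 female ones became 24 with classes from full counts, 20 of them in the same direction, and 32 without any 1 mouse. Male co-detection contrasts, 5 called, became 2 with singlets, 8 with no filter and 3 to 5 without 1 mouse (3 without old male 3 or young male 5), and the 13 female ones 12 to 13. With classes from full counts, contrasts turned to −0.67 for Ccl9, −0.91 for Ccl6 and −0.88 for Ccl3 (NF-kB targets, females), −0.12 for Ccl2, −0.11 for Ccl9, −0.37 for Ccl6 and −1.0 for Ccl3 (MHC-II genes, females), −0.19 for Ccl9 and −0.51 for Ccl6 (NF-kB targets, males) and −0.20 for Ccl6 (immediate early genes, males).

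Without the mouse as a replicate block, 10 antibody, 30 female score, 17 male score, 11 female and 3 male co-detection contrasts were called. The block decided the calls of Ccl3 with MHC-II genes and NF-kB targets and of Ccl6 with CD11c in females, of Ccl6 in Ccl2-positive, Ccl2 in Ccl3-positive and Ccl3 in Ccl4-positive female cells, and of Ccl6 in Ccl2-positive and Ccl3 in Ccl9-high male cells. The labels do not pair mice between age groups, so the age fits have no block. Depth limits Cxcl2 in both sexes and Ccl4 in males, which could not be fitted by age.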
